A study of Homo sapiens with 8 samples.

Results

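The regions described here are the eCLIP peaks of PTBP1 and IGF2BP2 (also called IMP2) that the deposited peak lists annotate as 5' UTR. Every peak with that annotation in the 4 immunoprecipitation (IP) lists was taken, and lines repeated within a list were removed, which left 37667 of 1843422 peaks. The 5' UTR peaks numbered 11393 and 10558 in the PTBP1 replicates and 8012 and 7704 in the IGF2BP2 replicates. They named 7501 genes.

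The study mapped where each of the 2 proteins touches RNA in A172, an established human glioma cell line. Cells of every group were fed 500 µM of the photoreactive nucleoside 4-thiouridine for 3 h and exposed 2 times to 365 nm light at 400 mJ/cm2. The lysates were then treated with RNase I, and 2% of each lysate was kept as input. The 8 samples form 4 groups of 2, namely PTBP1 IP, PTBP1 input, IGF2BP2 IP and IGF2BP2 input; peaks are listed for the IP libraries, and the 4 input libraries are not analysed here except through the input reads behind each peak. No gene was altered and no treatment was compared. The labels do not say that the replicates came from separate cultures, so each p-value below measures only the spread between these libraries. Of the genes chosen to check the glioma label, EGFR held 202 to 335 peaks per list, CD44 69 to 108, NES 13 to 23, VIM 8 to 29 and FN1 3 to 22, whereas GFAP held 0 to 3 and SOX2 0. Of the markers of other cells, CD3E, HBB and ALB held 0, EPCAM 2 to 5 and the leukocyte gene PTPRC 5 to 13, so in the IGF2BP2 lists FN1 (4 and 3) was below PTPRC (9 and 5) and VIM (8 and 8) about level with it.

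PTBP1 is an RNA-binding protein that favours runs of pyrimidines. It is best known as a repressor of alternative exons, and it also binds some 5' UTRs that can recruit ribosomes internally. IGF2BP2 binds mature mRNAs, chiefly in 3' UTRs and coding sequence, and is known for stabilising them and aiding their translation. A 5' UTR is the part of an mRNA that the small ribosomal subunit scans before the start codon, and it may hold short upstream reading frames, iron-responsive hairpins or, in ribosomal protein mRNAs, a run of pyrimidines at the cap (the TOP element).

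Stretches of the enriched regions that lie within the opening 50 transcribed bases of a gene are printed below, so that their pyrimidine content can be read directly. They are a minority of the enriched PTBP1 regions, of which 43 of 68 with a known distance lay beyond 1 kb from a start. Strong regions such as those of HNRNPH3 and TP53BP1 lie outside these bases and were not read. "Enriched" means that both the log2 ratio of IP over input and the -log10 p of the peak were at least 3 on the common scale of its list. Bases come from RefSeq (GRCh38.p14), which had a promoter window for 6060 of the 7501 genes (80.8%). They are written 5' to 3' on the strand of the gene, with runs of at least 4 pyrimidines in capitals.

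The PTBP1 regions are those of XRCC6 (the Ku70 subunit that binds broken DNA ends; chr22:41621317-41621344, plus strand), ADAMTS7 (a secreted metalloprotease; chr15:78811415-78811430, minus strand), GZF1 (a zinc finger factor; chr20:23364363-23364390, plus strand), RPS27 (a ribosomal protein of the small subunit; chr1:153990772-153990801, plus strand) and UCN2 (the peptide urocortin 2; chr3:48563732-48563752, minus strand).
XRCC6: tccaagttggtcgCTTCCCTgcgccaaa
ADAMTS7: TTTTCTTTgCCTCTgc
GZF1: ctgTTTTTggaaggaagaaagatggaaa
RPS27: ggtgacgacctacgcacacgagaacatgcc
UCN2: gCCCCaggcagccacagcagg

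The IGF2BP2 regions shown are 5 of 14, picked after all were read so as to include the richest and the poorest in pyrimidines. They are those of INSIG1 (the endoplasmic reticulum protein that holds back sterol-regulated transcription; chr7:155297886-155297915, plus strand), ZSCAN12 (a zinc finger factor; chr6:28399698-28399712, minus strand), SRSF7 (a splicing factor; chr2:38751312-38751337, minus strand), TUBA1B (alpha-tubulin; chr12:49131346-49131372, minus strand) and SCD (stearoyl-CoA desaturase; chr10:100347263-100347282, plus strand).
INSIG1: cccgggccgtgaCTCCTCCTTTCCCCCgcc
ZSCAN12: ggCCTCTTgCCTTCg
SRSF7: ggtgaaggtgtgtgtcagCTTTTgcg
TUBA1B: tagcttgtcggggacggtaaccgggac
SCD: gcagcggataaaagggggct

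Pyrimidines made up 87.5% of the ADAMTS7 stretch, 60.7% of XRCC6, 43.3% of RPS27, 42.9% of UCN2 and 28.6% of GZF1, which are all the PTBP1 stretches. At ADAMTS7 an enriched PTBP1 region also lay over this one on the opposite strand, where the bases are the complement. Its log2 values were 3.48 and 3.44, against 3.41 and 3.45 on the strand of the gene. IP and input reads were not recovered for either ADAMTS7 region. Among the IGF2BP2 regions they made up 76.7% of the INSIG1 stretch, 73.3% of ZSCAN12, 46.2% of SRSF7, 40.7% of TUBA1B and 25.0% of SCD, and the 9 stretches not shown lay between 38.5% and 61.1%. Over all stretches that could be read, the 1320 of PTBP1 were 45.1% pyrimidine and the 629 of IGF2BP2 47.2%, against 48.2% in the opening 50 bases of all 35116 RefSeq windows. The stretches were richer in G and C than those windows, at 70.0% for PTBP1 and 75.1% for IGF2BP2 against 59.2%.

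Short pyrimidine words were searched on the gene's strand only in the opening 50 bases, with overlapping matches of different words allowed. TCTT was in 13.0% of the windows of genes with a reproducible PTBP1 region and in 11.5% for IGF2BP2, against 16.0% of all windows and 12.6% of those of genes with a peak in each of the 4 lists. In the 97 windows of genes with an enriched PTBP1 region the share was 16.5%, and in the 79 windows for IGF2BP2 it was 13.9%. CTCTCT was in 4.12% and 3.80% of these windows, against 2.27% of all windows and 1.98% of those of genes with a peak in each list. CCTTTT was in 3.09% and 1.27%, against 1.33% and 1.06%. The 97 and 79 windows came from only 52 and 50 genes, and windows of the same gene can share bases. The CTCTCT and CCTTTT shares among them thus rest on a few windows each, and their difference from the other sets was not tested. A match says only that the letters are present, and not that a region covers them. Of the 68 enriched PTBP1 regions with a known distance, only 13 were within 200 nt of a start. Most therefore lay outside the searched bases.

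In both proteins the 5' UTR was a small class. PTBP1 had 1.90% and 1.96% of its peaks there and IGF2BP2 2.21% and 2.26%, so the IGF2BP2 libraries were both above the PTBP1 libraries. The means were 1.93% ± 0.044 and 2.23% ± 0.034 (SD, n = 2), and the 2-sided exact permutation p was 0.333, the smallest that 2 libraries against 2 allow. The sign of the difference turned among enriched peaks, of which the 5' UTR held 1.39% for PTBP1 and 1.06% for IGF2BP2.

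Enrichment set the 5' UTR apart from the other regions differently in each protein. Of the 5' UTR peaks, 2.19% and 1.99% were enriched in PTBP1 and 4.69% and 4.13% in IGF2BP2, with no overlap between the proteins (2.09% ± 0.14 against 4.41% ± 0.40, SD, n = 2, exact permutation p = 0.333). In PTBP1 that was below coding sequence (5.73%) and, over peaks of any depth, close to 3' UTRs (2.19%) and introns (2.42%). With at least 10 IP reads the PTBP1 share was 3.83% in 5' UTRs. It was then 8.32% in coding sequence, 4.64% in 3' UTRs and 6.77% in introns, so 5' UTRs lay below introns. In IGF2BP2 the share over all 5' UTR peaks was below each of these classes, with 5.57% in coding sequence, 20.9% in 3' UTRs and 8.76% in introns. The difference between the proteins in 5' UTRs depended on the scale. With the log2 values as deposited the shares were 5.58% and 5.60%, and with a -log10 p of at least 5 they were 1.38% and 1.46%. On the common scale and with at least 10 IP reads they were 3.83% and 8.31%.

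**Figure D1:**
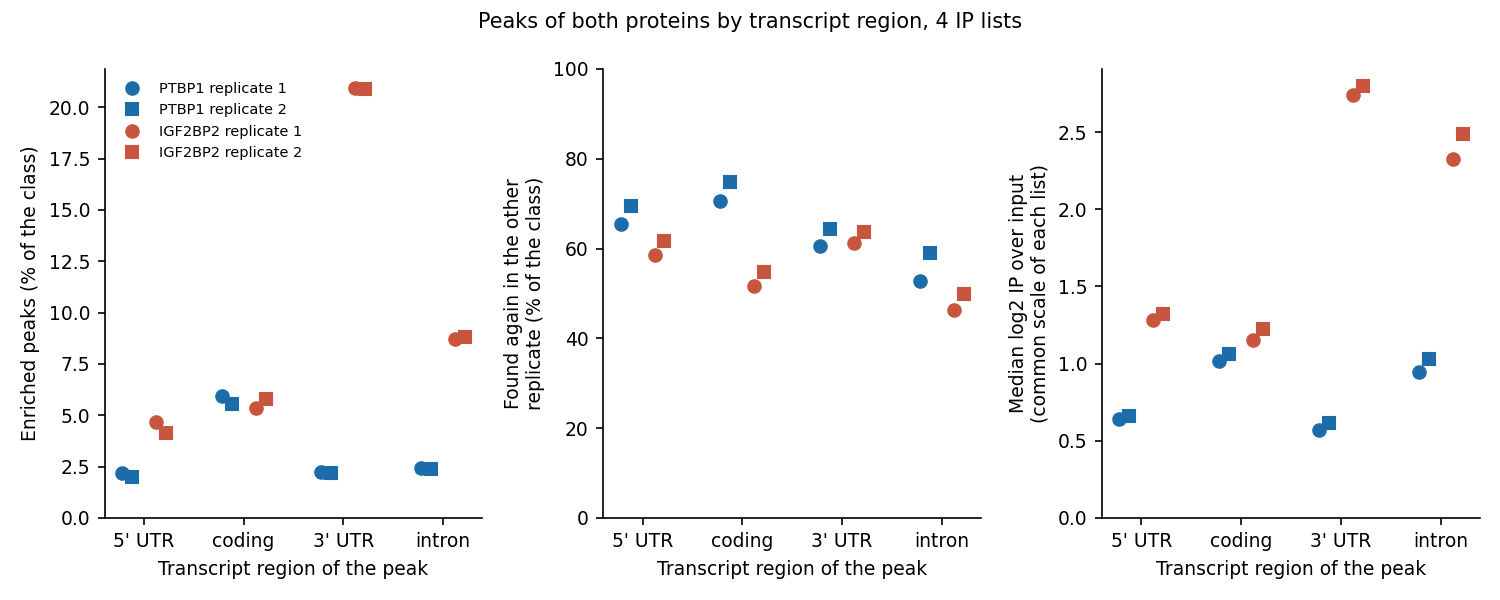
Each point is 1 IP list (blue PTBP1, red IGF2BP2; circles replicate 1, squares replicate 2) and the x axis is the transcript region of the peak. The panels give the percentage of peaks that were enriched, the percentage found again in the other replicate and the median log2 IP over input; 5' UTR peaks of IGF2BP2 lie at 4.69% and 4.13% enriched, far under its 3' UTR peaks at 20.9%.

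Within genes the log2 values were compared in place of the enriched shares. In genes with at least 2 peaks in each region, the median log2 of 5' UTR peaks minus that of coding peaks was -0.60 in both PTBP1 lists, over 2005 and 1799 genes. For IGF2BP2 it was -0.09 and -0.21, over 1134 and 1084 genes. Against 3' UTR peaks the differences were -0.13 and -0.19 for PTBP1 and -1.45 and -1.48 for IGF2BP2. Within genes the 5' UTR thus lay lowest against coding sequence in PTBP1 and lowest against the 3' UTR in IGF2BP2.

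The depth behind a peak differed between the proteins. The median 5' UTR peak rested on 21 and 16 IP reads in PTBP1 and on 6 and 5 in IGF2BP2, with 8, 7, 7 and 7 input reads. Peaks were 42 and 40 nt long at the median in PTBP1 and 24 nt in both IGF2BP2 lists. Of the PTBP1 5' UTR peaks, 65.4% and 69.4% were found again in the other replicate (overlap of at least 1 nt on the same strand; 95% Wilson intervals 64.5 to 66.3% and 68.5 to 70.3%). For IGF2BP2 the shares were 58.6% and 61.6% (57.5 to 59.7% and 60.5 to 62.7%). The share followed the reads: it was 20.6% to 33.5% for peaks of 3 IP reads and 90.0% to 96.5% for those above 50. PCR copies are not independent molecules, so these intervals cover counting error only.

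Most 5' UTR peaks lay close to a gene start, and the enriched PTBP1 peaks did not. Distances are genomic, introns included, from the midpoint of the peak to the nearest listed RefSeq start of its gene, known for 80.8% to 82.2% of the peaks of a list. Within 200 nt lay 53.1% and 53.9% of the PTBP1 peaks and 59.7% and 60.0% of the IGF2BP2 peaks. Beyond 1 kb lay 21.1% and 20.5% in PTBP1 and 10.6% and 9.85% in IGF2BP2.

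Among enriched peaks the proteins parted further. Only 23.4% and 32.1% of the enriched PTBP1 peaks were within 200 nt of a start, against 61.5% and 61.2% for IGF2BP2. Beyond 1 kb lay 58.7% and 55.4% in PTBP1 and 13.7% and 11.2% in IGF2BP2 (57.0% ± 2.4 against 12.5% ± 1.7, SD, n = 2, exact permutation p = 0.333). The median distance of an enriched peak was 2740 and 2413 nt in PTBP1 and 115 and 80 nt in IGF2BP2. An enriched PTBP1 peak in a 5' UTR was therefore typically in a 5' UTR exon well downstream of the nearest listed start.

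Seen from the other side, 0.95% and 1.15% of the PTBP1 peaks within 200 nt of a start were enriched, and 6.01% and 5.24% of those beyond 1 kb. In IGF2BP2 the shares were 4.96% and 4.23% near and 6.22% and 4.73% far. The far share minus the near share was 4.57 ± 0.69 percentage points in PTBP1 and 0.88 ± 0.54 in IGF2BP2 (SD, n = 2, exact permutation p = 0.333). Near and far PTBP1 peaks had similar IP depth, with medians of 22 and 19 IP reads in replicate 1 and 17 and 15 in replicate 2. Their median log2 was 0.51 and 1.28 in replicate 1 and 0.54 and 1.25 in replicate 2. The input reads behind near and far peaks were not compared.

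**Figure D2:**
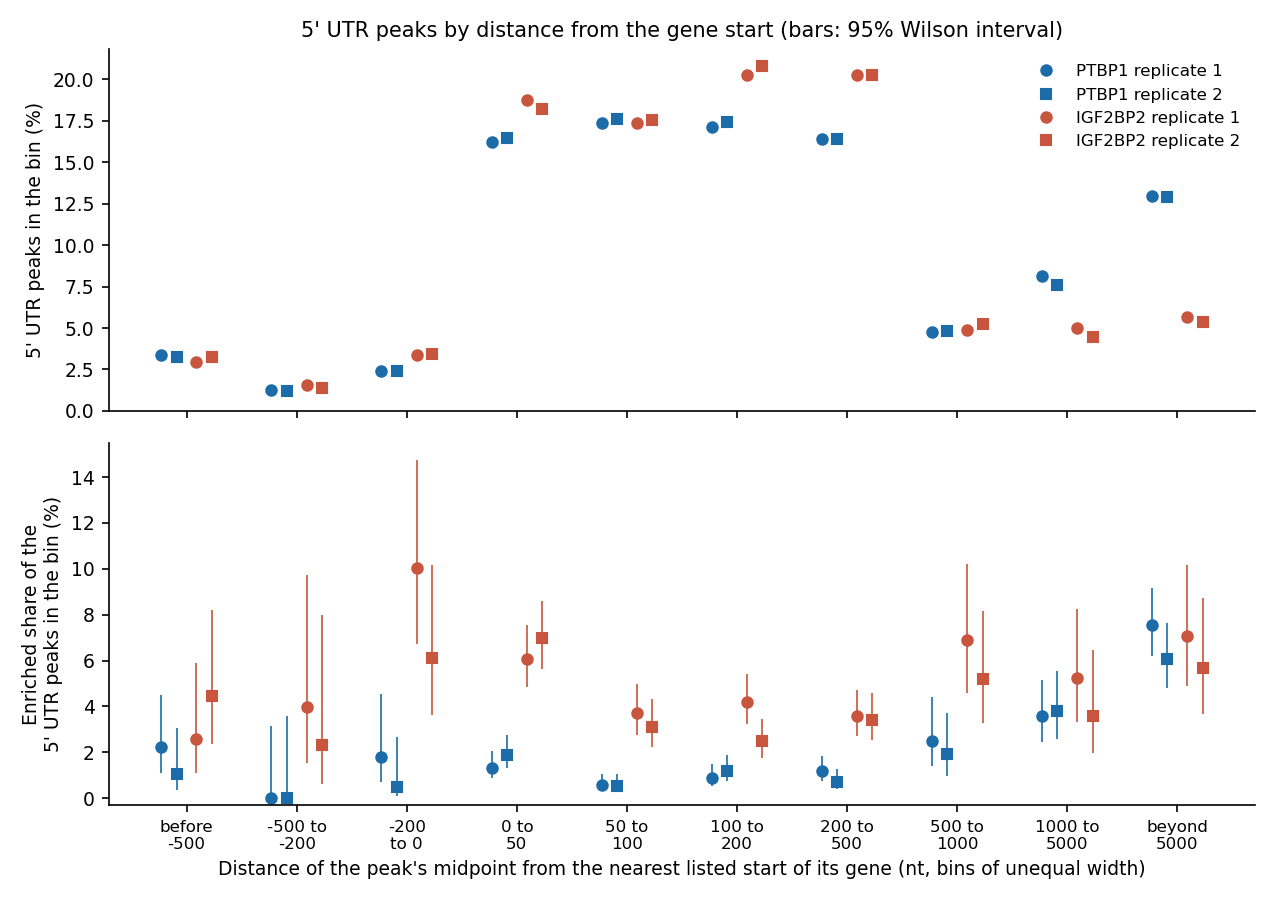
Bins of distance from the nearest listed gene start (nt, of unequal width) on the x axis; the upper panel gives the percentage of 5' UTR peaks in each bin and the lower panel the percentage of those that were enriched, with 95% Wilson intervals, for each of the 4 IP lists. Beyond 5000 nt PTBP1 reaches 7.53% and 6.08% enriched and IGF2BP2 7.08% and 5.69%. From 50 to 100 nt PTBP1 has 0.56% and 0.52% and IGF2BP2 3.71% and 3.11%.

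The far PTBP1 peaks were mostly inside their annotated exon. Of those on the gene's strand that were enriched and beyond 1 kb, 22.5% of 111 and 26.7% of 90 reached past the annotated feature, beside 17.4% and 17.1% of all sense 5' UTR peaks of PTBP1. An intron peak within 50 nt upstream was found for 0 of 111 and 0 of 90 of them, and downstream for 1 in each list. Over all sense 5' UTR peaks of PTBP1 the shares were 0.25% and 0.21% upstream and 3.96% and 3.56% downstream. A listed upstream intron peak was thus rare in both sets, so its absence here says little about the far enriched peaks.

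Joining overlapping peaks of the replicates gave 6476 reproducible 5' UTR regions in 3916 genes for PTBP1 and 4320 in 2611 genes for IGF2BP2. Of these, 87 PTBP1 regions in 67 genes were enriched in both replicates, which is 1.34%, beside 2.33% of the reproducible PTBP1 regions of all classes. For IGF2BP2 the number was 64 in 57 genes, or 1.48%, beside 5.95% of all its regions. With the log2 values as deposited the numbers were 259 and 110. With a -log10 p of at least 5 they were 63 and 24, and among regions with at least 10 IP reads 82 and 31.

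The position of these regions followed that of the peaks. Of 68 PTBP1 regions with a known distance, 13 were within 200 nt of a start and 43 beyond 1 kb, with a median of 5580 nt. Of 57 IGF2BP2 regions, 33 were within 200 nt and 9 beyond 1 kb, with a median of 121.5 nt. Support in reads was unequal: 65 of the PTBP1 regions but only 9 of the IGF2BP2 regions had at least 20 IP reads in both replicates. The 9 include WDR74, whose IP reads were recovered in replicate 1 only. PTBP1 regions with unrecovered reads are not among the 65.

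**Figure D3:**
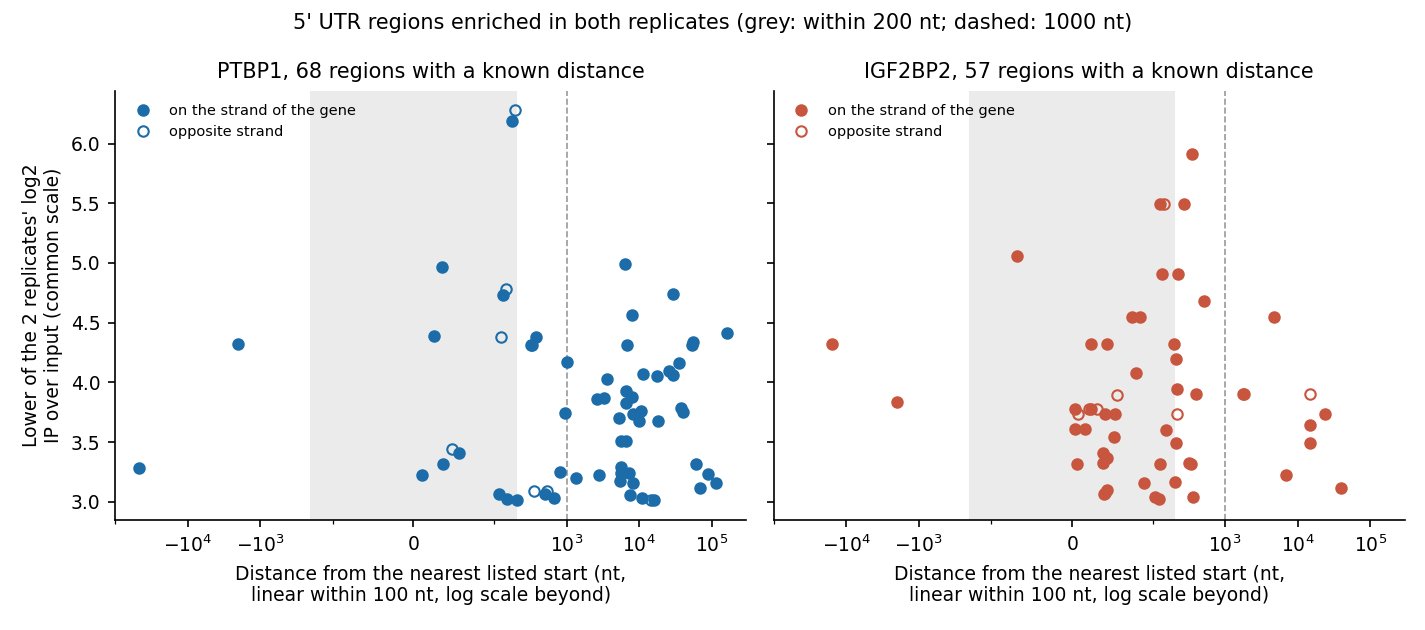
Each point is a 5' UTR region enriched in both replicates, with the distance from the nearest listed start on the x axis (linear within 100 nt, log scale beyond) and the lower of the 2 replicates' log2 IP over input on the y axis; open points lie on the strand opposite to the gene. PTBP1 has 43 of 68 regions to the right of the dashed line at 1000 nt and IGF2BP2 9 of 57.

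RBM39, a splicing coactivator, had 254 IP reads to 3 input reads and 318 to 1, log2 6.10 and 8.24; IGF2BP2 had 1 peak there, in replicate 1, at -0.07. HNRNPH3, an hnRNP, had 109 to 1 and 67 to 2, log2 6.47 and 4.99, at 6388.5 nt from the start; IGF2BP2 had a peak there in replicate 1 only, at 3.55. HNRNPA1, the hnRNP that acts beside PTBP1 on many exons, stood at 4.40 and 4.38 with no IGF2BP2 peak. PTBP2, the neuronal paralogue whose mRNA PTBP1 is known to control, stood at 3.74 and 4.09, 941.5 nt from the start, again with no IGF2BP2 peak. PRPF3 and PRPF4 (spliceosome proteins), CELF1 and SRSF11 (splicing regulators) and CLK2 (a kinase of SR proteins) also held enriched regions, with log2 values between 3.03 and 4.32. PRPF3, PRPF4, CELF1 and SRSF11 were picked from the 67 after their values were seen.

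XRCC6, whose sequence is printed above, had 66 reads to 1 and 33 to 1, log2 5.74 and 4.97, at 36 nt from the start and with no IGF2BP2 peak. TP53BP1, which guides the repair of DNA breaks, had 66 to 2 and 49 to 1, log2 4.74 and 5.54, at 29666 nt, and a further enriched region at 54024 nt. XPC, the damage sensor of nucleotide excision repair, held 3 enriched regions at 5574.5 to 8095.5 nt, with log2 values from 3.29 to 4.65. Neither TP53BP1 nor XPC had a 5' UTR peak of IGF2BP2 in either replicate.

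RBMS3, an RNA-binding protein of the MSSP family, had 6 enriched PTBP1 regions among 8 reproducible 5' UTR regions, but all 6 overlapped a peak on the other strand and 3 lay opposite to the gene. It had 9 and 8 peaks in PTBP1 and 0 and 4 in IGF2BP2. Its strongest regions lay on opposite strands over each other: 102 to 1 and 82 to 1 on the minus strand, and 101 to 1 and 77 to 1 on the plus strand, the strand of the gene. NBPF20 had 5 enriched regions, none overlapped on the other strand, the strongest with 112 to 1 and 112 to 2 reads, log2 6.50 and 5.73. It belongs to a family of near-identical copies, so the reads cannot be assigned to it with certainty. HOXB8, a homeobox factor, had 384 to 9 and 196 to 1, log2 5.11 and 7.54, and IGF2BP2 stood at 2.74 and 2.90 in the same place. PSMC1, an ATPase of the proteasome, had 3 enriched regions, and LMO7, TUT7 (an RNA uridylyltransferase), DDX3X (a helicase of translation initiation), NR2F1 (a nuclear receptor) and RPS27 had 2 each. Those of NR2F1 lay over each other on opposite strands, each with 49 to 2 reads in replicate 1, and the minus-strand region was opposite to the gene.

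The IGF2BP2 regions with most reads were in HS3ST4, a heparan sulfate sulfotransferase, with 144 reads to 8 and 127 to 3, log2 5.91 and 7.31, at 352 nt; PTBP1 had peaks there at -0.82 and -0.99. SMAD6, an inhibitor of BMP signalling, had 23 to 3 in both replicates, log2 4.68 and 4.84, and PTBP1 stood at 1.83 and 1.65. SSTR2, a somatostatin receptor, had 23 to 5 and 25 to 5, log2 3.94 and 4.23. The transcription factor JUN had 40 to 11 and 34 to 10, log2 3.60 and 3.67, with no PTBP1 peak at the place. INSIG1 had 50 to 20 and 54 to 23, log2 3.06 and 3.14, where PTBP1 was at -1.17 and -1.18. ARL2BP, a partner of the small GTPase ARL2, had 26 to 6 and 34 to 15, log2 3.85 and 3.09.

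Other enriched IGF2BP2 regions rested on fewer reads. FBXO31, an F-box protein of a ubiquitin ligase, had the most, 3, each with the same 9 to 2 and 11 to 3 reads. They abut or lie over each other, so they are 1 place. Of the 3, 2 lay opposite to the gene, and PTBP1 had no 5' UTR peak in FBXO31. OGFOD2, an oxygenase domain protein, had 2 over each other on opposite strands, with 12 to 2 and 12 to 3 reads on the strand of the gene. SCD, the desaturase that makes monounsaturated fatty acids, had 7 to 2 and 11 to 4 reads, log2 3.55 and 3.36. CDKN1B, the cell cycle inhibitor p27, had 16 to 3 and 12 to 4, log2 4.15 and 3.49. GLUL, glutamine synthetase, held 2 regions that abut, each with the same 7 to 1 and 9 to 1 reads, so they too are 1 place. TAF7, a subunit of TFIID, held 1 region with 17 to 1 and 12 to 1. MED26, a Mediator subunit, held 2 regions over each other on opposite strands with the same 19 to 1 and 12 to 1 reads. SCD and TAF7 were picked after their values were seen.

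**Figure D4:**
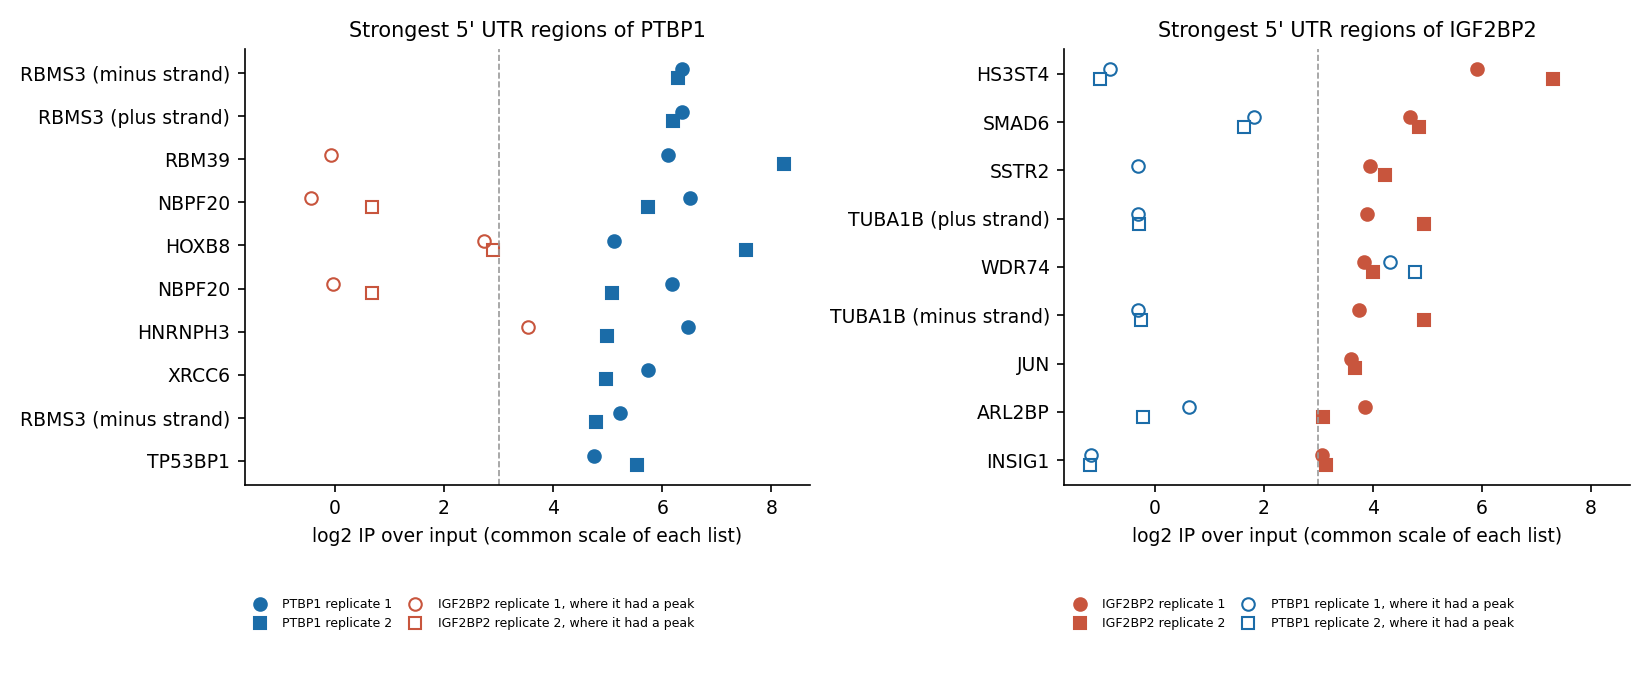
The x axis gives the log2 IP over input of each region in each replicate (filled: the protein whose region it is; open: the other protein, where it had a peak), and the dashed line marks the threshold of 3. In 18 of the 19 regions shown the other protein is below the threshold or has no peak in at least 1 replicate, and WDR74 is above it in all 4 lists.

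Only 3 genes had regions enriched in both replicates of both proteins: LMO7, MSH6 and WDR74. The WDR74 region overlies RNU2-2, a U2 small nuclear RNA gene, so its peaks cannot be assigned to the mRNA. At MSH6, a mismatch repair gene, the IGF2BP2 regions had 14 to 3 and 12 to 3 reads and the PTBP1 region 169 to 17 and 116 to 3; both lay on the strand opposite to the gene, and a further IGF2BP2 region lay on its own strand. LMO7, a cell junction protein, stood at 3.75 and 4.29 in PTBP1 and 3.12 and 4.13 in IGF2BP2 at 40024 and 40043 nt from the start. The other protein had a peak in both replicates at 16 of the 87 PTBP1 regions and 27 of the 64 IGF2BP2 regions.

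Over all reproducible 5' UTR regions, 31.4% of those of PTBP1 (95% Wilson interval 30.3 to 32.6%) and 49.7% of those of IGF2BP2 (48.2 to 51.2%) were overlapped by a region of the other protein. In coding sequence the shares were 19.7% and 58.0%, and over all classes 19.9% and 39.6%. The 1733 genes with a 5' UTR region of both were 44.3% of the PTBP1 genes and 66.4% of the IGF2BP2 genes. With at least 10 IP reads required of both proteins, which left 3238 and 1040 regions and so fewer possible partners, the shares were 8.55% and 27.5%.

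The number of 5' UTR peaks per gene was compared between the proteins with limma over all 23599 pairs of a gene and a transcript region with at least 10 peaks. Of the 7501 genes with a 5' UTR peak, 945 had enough. Past an adjusted p of 0.05, 16 genes (1.69%) were higher in PTBP1 and 54 (5.71%) in IGF2BP2, beside 11.3% and 12.3% of all pairs. The median difference of the 945 was -0.51 on the log2 scale, against -0.03 over all pairs. With a minimum of 4 peaks the counts turned, with 376 genes higher in PTBP1 and 208 in IGF2BP2. At that minimum more genes can pass only through the protein in which they are higher. The share over all pairs at that minimum is not given here, so this turn describes the lists and not the genes. The calls also depend on the scale: when peaks were counted as a share of the 5' UTR peaks alone, 0 genes passed, with 261 at an unadjusted p under 0.05 in the same limma fit.

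In 13 of the 16 genes higher in PTBP1, IGF2BP2 had no 5' UTR peak, and 1 of the 54 higher in IGF2BP2 had none of PTBP1. Such genes reached the minimum only through the protein in which they are higher, so they are a description of these lists and get no fold and no p. DYNC2I1, RAD54L2, FGFR1, CREBBP and HELZ2, with 1 peak in all in the other protein, also reached it through 1 protein alone, and their values are likewise a description. ARID1A, RITA1 and MED26, with 1 or 2 peaks per PTBP1 list, reached it through IGF2BP2 alone and are a description too. DYNC2I1, a chain of the ciliary dynein, had 15 and 14 peaks in PTBP1 and 0 and 1 in IGF2BP2. CARF, a calcium-responsive transcription factor, had 8 and 6 against 0 and 0. PPP1R12B, a myosin phosphatase subunit, and UNC45A, a myosin chaperone, each had 7 and 6 against 0 and 0. RAD54L2, a chromatin remodeler, had 13 and 10 against 1 and 0. TRPM4, PITRM1, TKFC, GORASP1 and MRPS11 followed with 4 to 9 peaks per PTBP1 list and 0 in both IGF2BP2 lists.

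The 10 genes with the largest differences toward IGF2BP2 began with DUSP6, a phosphatase that switches off ERK, which had 0 and 0 peaks in PTBP1 and 6 and 4 in IGF2BP2. FGFR1, a receptor of fibroblast growth factors, had 0 and 1 against 5 and 6. DUSP8, which acts on stress kinases, had 1 and 0 against 3 and 6, a difference of -3.15 ± 0.68 (SE, limma adjusted p = 0.0285). DUSP8 met the minimum almost wholly through its IGF2BP2 peaks. CREBBP, an acetyltransferase, had 0 and 1 against 6 and 6, and ARID1A, a subunit of SWI/SNF, 1 and 1 against 5 and 5. HELZ2, RITA1, MED26, ARF5 and LMTK2 completed the 10. LMTK2 did not pass when nucleotides covered replaced the number of peaks (-0.46, adjusted p = 0.379). FGFR1 and HELZ2 did not pass without PTBP1 replicate 1, and DUSP8 did not pass without PTBP1 replicate 2. ARID1A, ARF5 and LMTK2 did not pass when either of these libraries was left out.

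The log2 of IP over input was compared with limma at the sites that held 1 peak in each of the 4 lists, after centring each library on its median. Of 987 such 5' UTR sites, 98 (9.93%) were higher in PTBP1 and 101 (10.2%) in IGF2BP2, beside 9.16% and 10.3% of all 34245 sites. The 5' UTR shares were thus near those of all sites. The split rests on the centring: the library medians were 0.39 and 0.40 in PTBP1 and 1.17 and 1.23 in IGF2BP2, and without centring 40 sites were higher in PTBP1 and 307 in IGF2BP2.

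The called sites of both directions lay mostly near a start: 62.5% of those higher in PTBP1 and 65.9% of those higher in IGF2BP2 were within 200 nt, beside 60.0% of all sites with a known distance, and the median distances were 114.5 and 122.4 nt. Of the 74 sites beyond 1 kb, 13 (17.6%) were higher in PTBP1 and 2 (2.70%) in IGF2BP2, with a median difference of 0.49. Of the 474 sites within 200 nt, 50 and 54 were higher in each, with a median of -0.11, and of the 209 sites 200 to 1000 nt downstream 13 (6.22%) and 24 (11.5%). The difference between these distance classes was not tested.

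Of the sites higher in PTBP1, the 10 with the largest differences were led by NBPF20 and ETF1. ETF1, the release factor that ends translation, had centred log2 values of 1.55 and 1.55 in PTBP1 and -3.66 and -3.23 in IGF2BP2, a difference of 4.99 ± 0.38 (SE, adjusted p = 0.00216). HNRNPU, a nuclear matrix hnRNP, had 1.34 and 1.09 against -2.59 and -2.36, a difference of 3.69 ± 0.39 (adjusted p = 0.00298). PCF11, a factor of 3' end cleavage, RBM39, CLK2 and ZC3H11A, an mRNA export protein, differed by 2.85 to 3.09. IQCB1, POGK, STAG1 and NBPF20 were the others of the 10, and NBPF20 had the largest difference, 6.79.

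Sites higher in IGF2BP2 were led by SMIM20, a small mitochondrial membrane protein, with centred values of -2.43 and -0.67 in PTBP1 and 2.57 and 3.09 in IGF2BP2, a difference of -4.38 ± 0.67 (adjusted p = 0.00634). DLX2, a homeobox factor, had -3.02 and -2.80 against 0.91 and 1.01, a difference of -3.87 ± 0.37 (adjusted p = 0.00238). At INSIG1 the difference was -3.47 ± 0.44 (adjusted p = 0.0041). TUBA1B and IER5L, a relative of the immediate early gene IER5, each gave a site on both strands: the IGF2BP2 IP reads were 40 and 41 on each strand of TUBA1B, and 131 and 116 on each strand of IER5L. MARCHF8, TMEM116 and ZNF703 differed by -3.70, -3.66 and -3.62; without PTBP1 replicate 1 the adjusted p of MARCHF8 was 0.0646 and that of TMEM116 0.0621.

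**Figure D5:**
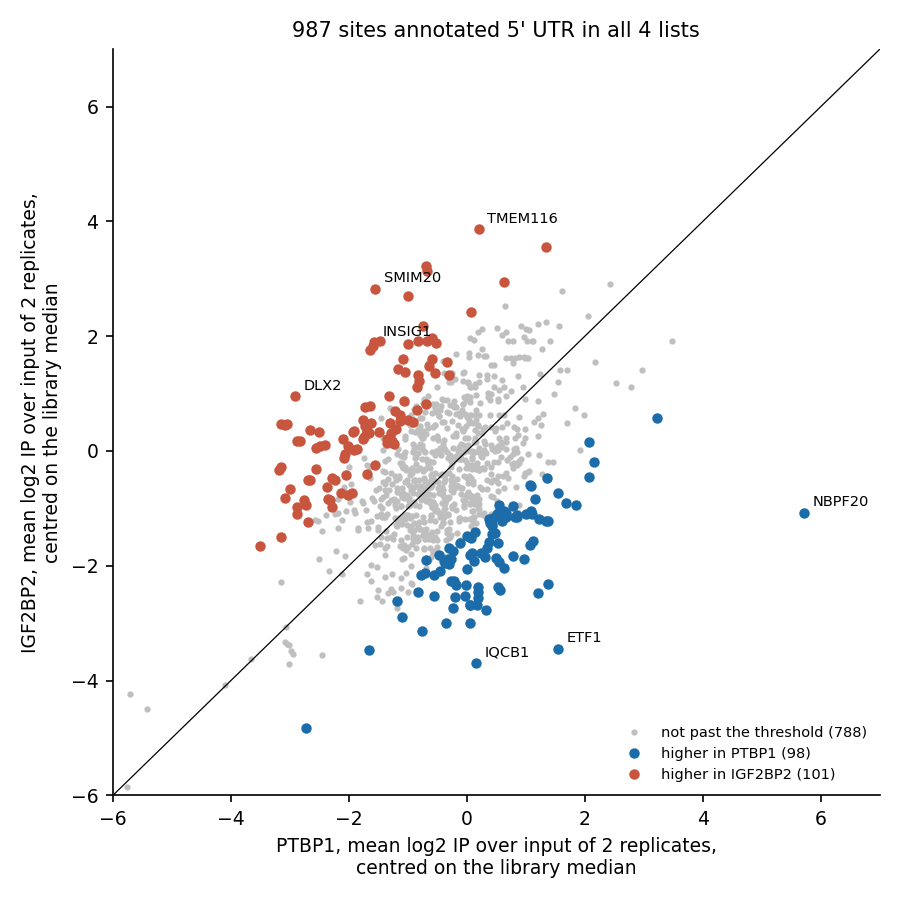
Each point is 1 of the 987 sites annotated 5' UTR with a peak in all 4 lists; the axes give the mean centred log2 IP over input of the 2 PTBP1 and the 2 IGF2BP2 libraries, and the line marks equal values. The 98 blue and 101 red sites passed the adjusted threshold, and ETF1 and NBPF20 lie farthest toward PTBP1.

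Opposite-strand signal accompanied part of these data. Where the strand of the gene was known, 11.1% to 12.0% of 5' UTR peaks per list lay opposite to the gene they were named for. Of those, 61.1% to 67.9% were overlapped by a peak on the other strand, against 7.88% to 9.23% of the sense peaks. Of the enriched regions, 13 in each protein had such a partner, and 8 in each lay opposite to their gene. Without these overlapped peaks 74 PTBP1 and 51 IGF2BP2 regions remained enriched; whether the strand of such peaks is right was not tested.

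Ribosomal protein mRNAs, the classic carriers of TOP elements, had a reproducible 5' UTR region of PTBP1 in 26 of 75 genes and of IGF2BP2 in 18, beside 26.1% and 17.9% of the 14465 genes with peaks in every list. The ribosomal shares were 34.7% and 24.0%. Here and in the gene lists below, members with a peak in any IP list are counted, whereas the 14465 genes have a peak in each. Of the 75 ribosomal genes, 70 had a peak in each. An enriched region was held by RPS27 and RPL32 for PTBP1 and by RPS18 for IGF2BP2, beside 0.463% and 0.387% of the same 14465 genes. The starts of RPS27, RPS18 and the paralogue RPS27L are printed here, with any opening pyrimidine run in capitals, to show whether a TOP-like run is present: RPS27 (chr1:153990762-153990791), RPS18 (chr6:33272075-33272104) and RPS27L (chr15:63157448-63157477), all 30 bases from the start.
RPS27: CCTTTCCggcggtgacgacctacgcacacg
RPS18: CTCTCTTCCacaggaggcctacacgccgcc
RPS27L: gcagatcgcttgcagcttgctagctgtgtg

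RPS27 opens with a run of 7 pyrimidines and RPS18 with 9, whereas RPS27L, the paralogue of RPS27, has none. RPS27 had PTBP1 regions at 4.38 and 5.48 by the start and 4.38 and 5.64 farther in, and no enriched IGF2BP2 peak. Its region by the start began at base 11, past the opening run. RPS18 and RPS27L were IGF2BP2 regions, with 22 to 2 and 13 to 4 reads and with 22 to 1 and 11 to 3. Enriched regions thus fell on genes with and without the run. A start of C followed by at least 4 pyrimidines was found in 59.7% of the windows of the ribosomal list, in 5.58% for genes with a PTBP1 region, in 5.33% for IGF2BP2, in 4.91% for genes with a peak in each list and in 4.07% of all windows. RPL32 held 14 and 9 PTBP1 peaks and 2 and 3 of IGF2BP2, but its enriched region overlies SNORA7A, a small nucleolar RNA gene. At the site level, RPL37A (difference 2.70 ± 0.43, adjusted p = 0.00691) and RPL13 (1.49 ± 0.42, adjusted p = 0.0413) were higher in PTBP1 and RPS12 (-1.56 ± 0.45, adjusted p = 0.0471) in IGF2BP2.

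Other TOP mRNAs, those of translation factors and their partners, had a region of PTBP1 in 5 of 19 genes and of IGF2BP2 in 5 (26.3% each, beside 26.1% and 17.9% of the 14465 genes). TPT1, the tumour protein TCTP, gave 2 sites higher in PTBP1, by 1.87 ± 0.43 and 1.87 ± 0.42 (adjusted p = 0.0219 and 0.0209). Vimentin (VIM) had 2 peaks in every list but no enrichment, with highest log2 values of -1.62 and -1.62 in PTBP1 and -0.26 and -0.66 in IGF2BP2.

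Genes reported to start translation internally with the help of PTB had a PTBP1 region in 9 of 17 and an IGF2BP2 region in 8 of 17 (52.9% and 47.1%, beside 26.1% and 17.9%). APAF1, the scaffold of the apoptosome, had 5 and 6 PTBP1 peaks with highest log2 1.67 and 2.60, and 1 and 1 of IGF2BP2. MYC had 3 and 1 against 4 and 2, with highest values of 0.28 and -0.58 against 3.32 and 1.85. HIF1A, the oxygen-responsive factor, had 3 and 4 against 2 and 0. None of these 17 held a PTBP1 region enriched in both replicates and 1, CDKN1B, held one of IGF2BP2, beside 0.463% and 0.387% of the 14465 genes. MYC (-1.75 ± 0.41, adjusted p = 0.0233) and CDKN1B (-1.50 ± 0.44, adjusted p = 0.0468) had a site higher in IGF2BP2.

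Genes with regulatory upstream reading frames had a PTBP1 region in 11 of 15 and an IGF2BP2 region in 5 of 15 (73.3% and 33.3%, beside 26.1% and 17.9%). None was enriched in both replicates, beside 0.463% and 0.387% of the 14465 genes. ATF4, the factor induced by the stress response, had 4 and 4 PTBP1 peaks and 5 and 5 of IGF2BP2. Its highest values were 0.18 and 0.51 against 2.00 and 2.29. PPP1R15B, which directs a phosphatase to eIF2, had 2 sites higher in IGF2BP2, by -2.30 ± 0.45 and -2.16 ± 0.41 (adjusted p = 0.0133 and 0.0115). ODC1, which begins polyamine synthesis, had 4 and 4 peaks against 6 and 4.

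Iron-responsive and collagen mRNAs had a PTBP1 region in 1 of 7 and an IGF2BP2 region in 4 of 7 (14.3% and 57.1%, beside 26.1% and 17.9%). FTL, the ferritin light chain, had no 5' UTR peak of PTBP1 and 2 and 3 IGF2BP2 peaks, with highest log2 values of 4.55 and 4.23, though no region of it was enriched in both replicates. FTH1, the heavy chain, had 1 and 0 against 2 and 2.

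Known IGF2BP targets had a PTBP1 region in 9 of 15 (60.0%) and an IGF2BP2 region in 8 (53.3%), and known PTBP1 targets in 7 (36.8%) and 9 (47.4%) of 19, beside 26.1% and 17.9% of the 14465 genes. IGF2BP1 itself had 2 sites higher in PTBP1, by 1.62 ± 0.39 and 2.14 ± 0.40 (adjusted p = 0.0253 and 0.0116). The GABA receptor gene GABBR1 had 1 site higher in PTBP1, by 2.60 ± 0.57 (adjusted p = 0.0193). Growth regulators had 11 and 14 of 24 (45.8% and 58.3%, beside the same 26.1% and 17.9%). JUN (-1.98 ± 0.37, adjusted p = 0.0113), JUNB (-1.93 ± 0.40, adjusted p = 0.0161) and TGFB1 (-1.35 ± 0.39, adjusted p = 0.045) each had a site higher in IGF2BP2. TGFB1 also had more IGF2BP2 peaks, 11 and 16 against 9 and 9. SP1, a promoter factor, had 1 peak in each IGF2BP2 list, at 3.74 and 3.49, and none in PTBP1. Over the lists with at least 5 tested sites the median site difference was between -1.05 (internal initiation) and 1.47 (PTBP1 targets), beside -0.04 for all 987. Each list had only 5 to 10 sites in 2 to 8 genes, and sites of the same gene are not independent. The PTBP1 targets had 5 sites in 3 genes, with 1 site higher in PTBP1. The internal initiation list had 5 sites in 4 genes, with 2 sites higher in IGF2BP2. The iron-responsive and collagen list had 0 tested sites, and the genes that check the cell type had 1, at -1.90.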

How the data were processed

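The authors' peak lists, 1 for each IP library, give a log2 ratio of IP over input, a -log10 p (up to 400) and the length of overlap with the annotated feature for each peak, per the file headers and values. The reads were aligned with HISAT2 to hg38, per the submitters' processing notes; which caller made the peaks, and which annotation was used, is not given in the sources used here. The deposited log2 carried 1 constant per chromosome, so values were moved to the median constant of the list (the common scale: -0.30 and -0.08 for PTBP1, 1.74 and 1.90 for IGF2BP2). IP and input reads were recovered as the whole numbers that give the deposited log2 and, within 1%, the deposited p, for 98.4% to 99.6% of the peaks with a usable p and a log2 of at least 0; reads of the other peaks are unknown. The p was then recomputed (exact test under 5 reads, otherwise chi-square). The lists held 341305 to 600615 peaks.

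Replicate peaks were joined by an overlap of 1 nt on the same strand. Genes with at least 10 peaks were compared with limma 3.58.1 (R 4.3.3) on log2 of peaks plus 0.5 per 10000 peaks of the list, and sites on centred log2, with Benjamini-Hochberg adjustment over all pairs or sites. Python 3.11.15, pandas 2.3.3 and scipy 1.17.1 were used, and the scripts were tested on simulated data.

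Genes were named as the 10 with most enriched regions and the 10 strongest regions with at least 20 IP reads in both replicates. For IGF2BP2 9 such regions existed, of which WDR74 had known reads in replicate 1 only. The 10 largest gene and site differences past the threshold, and members of the gene lists with peaks in both replicates, were also named. Others are said to have been picked. The peaks and lists were chosen with earlier results of these data known. Alternatives were another pseudocount, peak minimum, scaling, log2 as deposited, a stricter p, at least 10 IP reads, longer peaks, 50% overlap, leaving out each library or chromosomes 14 and 21, and a replicate block; removing opposite-strand peaks was added after seeing the data. Of several RefSeq starts of a gene the nearest was used.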

Additional observations from a re-analysis of the deposited data

How the results depend on the processing

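The shared replicate numbers did not pair the libraries: the correlation of same-numbered deviations was 0.003 for genes and -0.004 for sites, with 2 pairs only. With a replicate block limma called 86 genes and 201 sites; the paired differences were -0.305 points for the 5' UTR share and -2.32 for the enriched share, and no named gene or site changed its call. Leaving out 1 library gave 27 (without PTBP1 replicate 1) to 233 genes (without IGF2BP2 replicate 1), beside 70 in all, and 64 (without PTBP1 replicate 2) to 175 sites, beside 199. Without PTBP1 replicate 2, 30 genes passed, without IGF2BP2 replicate 2, 188, and without PTBP1 replicate 1, 72 sites.

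Gene calls numbered 182 with a pseudocount of 2 (17 higher in PTBP1, 165 in IGF2BP2), 584 with at least 4 peaks (376 and 208), 0 as a share of 5' UTR peaks, 325 by nucleotides (25 and 300), 155 with at least 10 IP reads (56 and 99), 107 with peaks longer than 4 nt and 41 without opposite-strand peaks. Site calls numbered 347 without centring, 27 of 115 with at least 10 IP reads and 69 of 275 at 50% overlap. The 5' UTR share turned to 0.329 points among enriched peaks. Regions enriched in both replicates numbered 259 (PTBP1) and 110 (IGF2BP2) with deposited log2, and for IGF2BP2 24 at a -log10 p of 5 and 31 with 10 IP reads. Overlap between proteins was 18.1% and 44.8% at 50% of the region and 8.55% and 27.5% with 10 IP reads, a filter that also shrank the partner lists. Peaks found again were 57.7% and 53.1% at 50% overlap, and 63.1% for IGF2BP2 with 10 IP reads.

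The share near a start, 53.5% for PTBP1, was 17.2% within 50 nt, 71.1% within 500 nt, 52.2% with 10 IP reads, and 52.5% and 52.9% without opposite-strand and without antisense peaks. For IGF2BP2, 59.9%, it was 19.9%, 81.6% and 57.0%, 60.1% without chromosomes 14 and 21 and 60.2% without antisense peaks. Among enriched peaks, PTBP1 (27.8%) had 13.3% within 50 nt, 35.2% within 500 nt and 41.4% with deposited log2. IGF2BP2 (61.4%) had 29.1%, 78.2% and 59.1%, then 57.6% with 10 IP reads, 59.5% with longer peaks, 62.1% without chromosomes 14 and 21, 62.1% without opposite-strand peaks, 61.7% without antisense peaks and 58.0% at a -log10 p of 5. The cause of these differences was not tested. Of 236 values of the named genes 30 lost the call, of 182 of the named sites 2, and none turned. The enriched IGF2BP2 regions had medians of 12 and 11 IP reads.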

Other observations

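Some genes carried many 5' UTR regions without enrichment at most of them. TBC1D3L, of a family of near-identical copies, held 15 reproducible regions in each protein. For PTBP1, TAOK1 (a stress kinase) held 14 and CEP250 (a centrosomal linker) 12. For IGF2BP2, IRF2BPL (a transcriptional regulator), OXTR (the oxytocin receptor) and TGFB1 held 10 each, and ADNP (a neuroprotective chromatin protein) held 8. At least 5 regions were found in 134 of 3916 PTBP1 genes and in 70 of 2611 IGF2BP2 genes.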
